A study of Homo sapiens with 9 samples.

Results

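The collagen chain genes were taken as every gene whose symbol is COL, a number, A and a number. Of the 60683 genes in the count table, 44 matched this rule. Counts of 29 of them summed to 10 or more over all 9 libraries, the filter under which 22672 genes were tested, and these 29 genes are described here. Hep3B cells, an established human liver cancer line, were incubated for 24 hours in 3 groups of 3 biological replicates. The groups were vehicle (DMSO) at 20% O2, vehicle (DMSO) at 1% O2, and the HIF inhibitor 32-134D at 1% O2. The sample labels gave no dose of 32-134D, and the groups held no 32-134D culture at 20% O2. One cell line was studied, so the values describe that line.

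Collagens are extracellular proteins in which chains from 1 or several genes wind into a helical trimer. Fibrillar collagens form the banded fibers of connective tissue, FACIT collagens sit on the surface of those fibers, and type IV collagens form the network of basement membranes. In normal liver, stellate cells and fibroblasts make most of the fibrillar collagen, and hepatocytes make the basement membrane collagen encoded by COL18A1. Chains are hydroxylated on proline and lysine in the endoplasmic reticulum by enzymes that need oxygen, and hypoxia-inducible factors (HIFs) activate the genes of several of these enzymes.

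Total counts ran from 6013980 to 40549699 per library. The libraries of 1 group differed beyond counting error, and 32-134D replicate 3 stood apart, since chi-square over its degrees of freedom was 36.2 and 40.5 against the other 32-134D libraries and 1.64 to 13.3 in the remaining pairs of replicates. CA9, a HIF target used to check the labels, was at 27.9 CPM in vehicle at 20% O2, 580 CPM in vehicle at 1% O2 and 56.6 CPM with 32-134D. CPM are counts scaled to a common library size with the TMM method, which sets the library sizes so that most genes do not move. With scaling by total library size instead, the median log2 fold change of all genes was −0.21 at 1% O2 and 0.17 with 32-134D. The difference between groups in bulk RNA cannot separate fewer cells that express a gene from less RNA per cell.

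Collagen mRNAs were lower at 1% O2. Of the 29 genes, 21 fell and 2 rose in vehicle at 1% O2 relative to vehicle at 20% O2, and 6 were not called. The 2 genes that rose, COL6A1 and COL6A2, encode chains of type VI collagen. A call needed an FDR below 0.05 in the edgeR quasi-likelihood test and a fold change above 1.5. Over all genes tested, 20.3% were called lower and 19.5% higher. The median log2 fold change of the collagen genes was −1.55, and that of all genes was 0.00. The libraries of the groups did not overlap for 23 of the 29 genes, against 60.5% of all genes tested. With each library corrected for its trends over transcript length and GC content, 14 collagen genes were called lower and the median was −1.30.

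The opposite pattern was seen with 32-134D. Relative to vehicle at 1% O2, 17 collagen genes rose, 2 fell and 10 were not called. The 2 genes that fell were again COL6A1 and COL6A2. Over all genes tested, 16.2% were called higher and 13.7% lower. The median log2 fold change was 1.14 for the collagen genes and −0.01 for all genes. The libraries did not overlap for 18 of the 29 genes, against 56.1% of all genes tested. Without 32-134D replicate 3, 14 collagen genes were called higher, 2 were called lower and the median was 1.34. The same vehicle libraries at 1% O2 stand in both comparisons, so a high or low value there moves both fold changes in opposite directions.

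**Figure D1:**
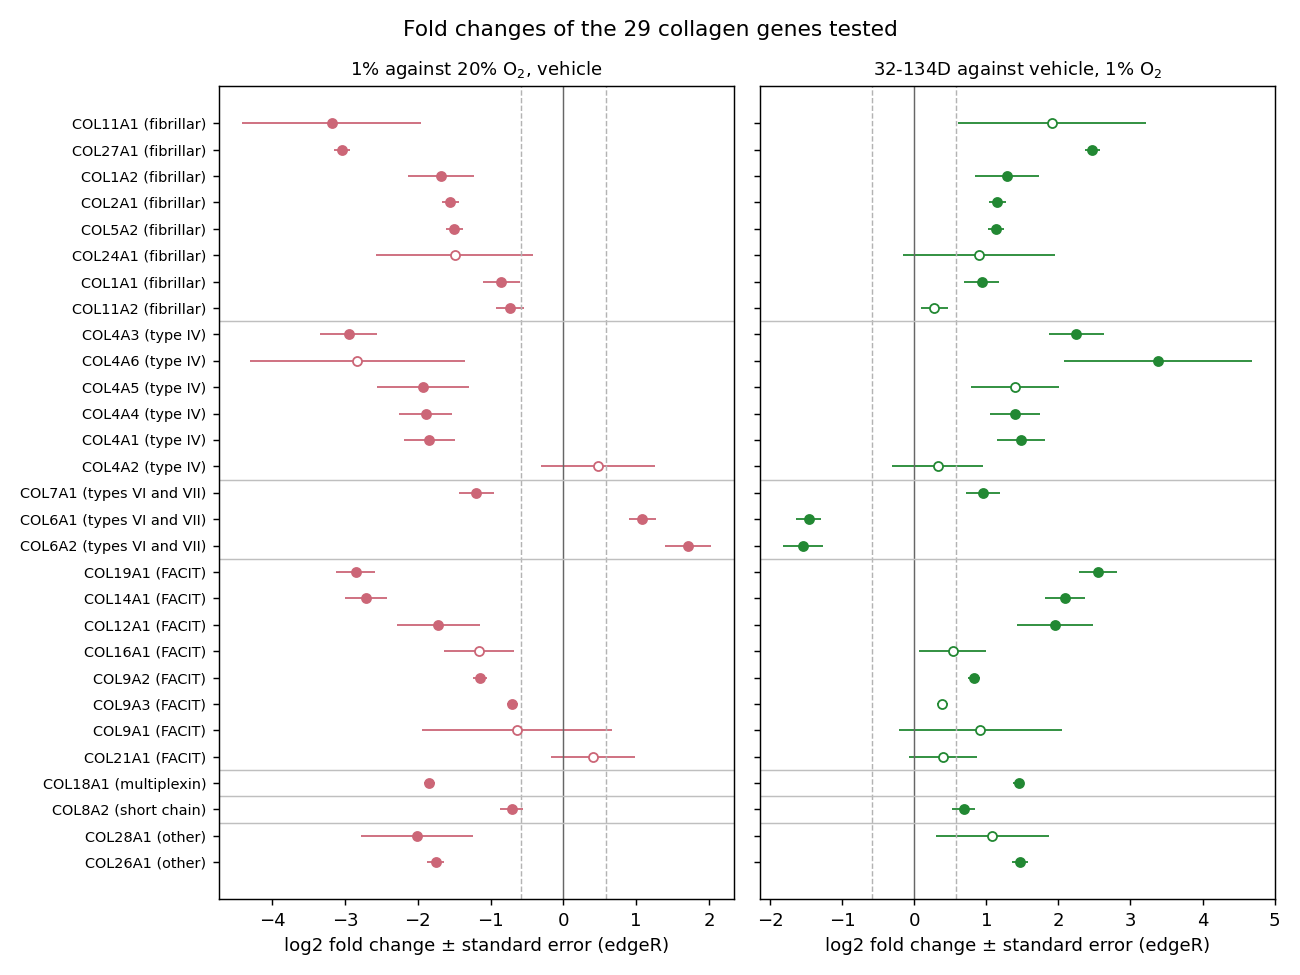
Log2 fold change and standard error of each of the 29 collagen genes, by class, for 1% against 20% O2 in vehicle (left) and for 32-134D against vehicle at 1% O2 (right). Filled points passed the FDR and fold change thresholds, and dashed lines mark a fold change of 1.5. COL6A1 and COL6A2 are the only filled points above 0 on the left and below 0 on the right.

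Among the fibrillar collagens, 7 of 8 genes fell at 1% O2 and 5 of 8 rose with 32-134D. Values are given in the order of replicates 1, 2 and 3. COL27A1, a fibrillar collagen of developing cartilage, was at 215, 274 and 271 CPM in vehicle at 20% O2, at 29.3, 31.8 and 31.3 CPM in vehicle at 1% O2, and at 179, 182 and 149 CPM with 32-134D. Each library at 1% O2 with vehicle was far below the other 6, and the 32-134D libraries all lay below those at 20% O2. COL27A1 was 8.24-fold lower at 1% O2, a log2 fold change of −3.04 ± 0.11 (SE) with an edgeR FDR of 2.69e-11. It rose by 2.47 ± 0.11 with 32-134D (edgeR FDR 5.25e-10). With length and GC trends removed, the COL27A1 difference at 1% O2 was −2.33 (edgeR FDR 1.04e-10). COL2A1, the chain of type II collagen, the fibrillar collagen of cartilage, was at 137, 171 and 162 CPM at 20% O2, at 53.6, 53.2 and 53.4 CPM at 1% O2, and at 133, 129 and 94.6 CPM with 32-134D. COL5A2, a chain of type V collagen, which takes part in the start of fiber assembly, was at 98.6, 105 and 105 CPM, at 32.7, 37.5 and 39.1 CPM, and at 87.0, 88.4 and 64.3 CPM in the same order of groups. For both genes the 1% O2 vehicle libraries did not overlap with either other group, and 32-134D replicate 3 was the lowest of its group. COL2A1 fell by 1.55 ± 0.12 (log2, SE) at 1% O2 (edgeR FDR 3.85e-08) and rose by 1.15 ± 0.12 with 32-134D (edgeR FDR 1.35e-06). COL5A2 fell by 1.50 ± 0.11 (edgeR FDR 3.81e-08) and rose by 1.14 ± 0.11 (edgeR FDR 1.07e-06).

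COL1A1 and COL1A2, the chains of type I collagen, the main collagen of fibrous tissue and scar, were expressed at low levels. COL1A1 was at 6.10, 7.38 and 6.48 CPM in vehicle at 20% O2, at 4.35, 3.77 and 2.73 CPM in vehicle at 1% O2, and at 5.36, 5.42 and 10.4 CPM with 32-134D. COL1A2 was at 0.932, 0.471 and 1.70 CPM, at 0.398, 0.424 and 0.311 CPM, and at 1.28, 0.976 and 0.412 CPM. The highest COL1A1 value was that of 32-134D replicate 3, whereas for COL1A2 this library was the lowest of its group and lay among the 1% O2 vehicle libraries. COL1A1 fell by 0.85 ± 0.26 at 1% O2 (edgeR FDR 0.0112) and rose by 0.94 ± 0.24 with 32-134D (edgeR FDR 0.00514). Without 32-134D replicate 3 the COL1A1 difference with 32-134D was 0.56 and under the fold threshold, and with length and GC trends removed its difference at 1% O2 was −0.39 and not called. COL1A2 fell by 1.68 ± 0.46 at 1% O2 (edgeR FDR 0.00582) and rose by 1.28 ± 0.44 with 32-134D (edgeR FDR 0.0269). The first of these calls was lost without vehicle replicate 3 at 20% O2 (−1.02, edgeR FDR 0.169). The second was lost without vehicle replicate 1 or 3 at 1% O2 (1.33 and 1.23) or 32-134D replicate 1 (0.98), and with length and GC trends removed (1.02). Both were lost with counts thinned to the smallest library (−1.49 and 1.43).

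COL11A2, a chain of type XI collagen of cartilage, was at 7.39, 7.07 and 7.15 CPM in vehicle at 20% O2, at 4.16, 3.58 and 5.22 CPM in vehicle at 1% O2, and at 6.44, 5.35 and 3.84 CPM with 32-134D. The vehicle groups did not overlap, whereas the 32-134D libraries overlapped with vehicle at 1% O2. COL11A2 fell by 0.73 ± 0.19 at 1% O2 (edgeR FDR 0.00513), and its difference with 32-134D was 0.28 ± 0.19 (edgeR FDR 0.248). The call at 1% O2 was lost with length and GC trends removed (−0.46) and with counts thinned to the smallest library (−0.51). COL11A1, the partner chain, had 8 counts in all in vehicle at 20% O2 and 1 count in vehicle at 1% O2, a ratio of 13.2 after scaling with a 95% counting interval of 1.77 to 586. It was called lower at 1% O2 (edgeR FDR 0.0401), a call that was lost under 7 of the 17 alternatives that gave an adjusted p. COL24A1, another fibrillar collagen, had 10 counts in all and was not called.

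The stretch before the start of COL27A1, the abundant collagen gene with the largest fall, is shown from RefSeq (GRCh38.p14, plus strand, chr9:114155287-114155536, up to 250 bases before the start). Capitals in the stretches shown mark ACGTG or GCGTG, the letters at which HIFs can bind, their reverse complements CACGT and CACGC, and the letters of a TATA box, TATAAA. The COL27A1 stretch holds none of them.
COL27A1: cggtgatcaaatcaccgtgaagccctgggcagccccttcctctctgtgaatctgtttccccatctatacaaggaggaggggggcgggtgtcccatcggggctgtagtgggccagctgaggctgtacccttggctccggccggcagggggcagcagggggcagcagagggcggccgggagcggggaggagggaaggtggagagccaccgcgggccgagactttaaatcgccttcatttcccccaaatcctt
The HIF letters were present in 43.2% of the 35116 promoters in the RefSeq table, over the same 250 bases and on both strands. Of the 29 collagen genes, 22 had a promoter there, some with several starts. The letters were present in 8 of 19 promoters of collagen genes that fell at 1% O2, in 3 of 11 promoters of genes that were not called, and not in the 1 promoter of a gene that rose. TATAAA was present in 6.80% of all promoters. These matches describe the letters of these windows only.

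Among the FACIT collagens, 5 of 8 genes fell at 1% O2 and 4 of 8 rose with 32-134D. COL14A1, which binds the surface of collagen fibers, was at 51.1, 67.0 and 61.5 CPM in vehicle at 20% O2, at 8.19, 10.2 and 9.20 CPM in vehicle at 1% O2, and at 49.3, 49.0 and 17.7 CPM with 32-134D. Replicate 3 of 32-134D was far below the other libraries of its group and still above every vehicle library at 1% O2. COL14A1 fell by 2.71 ± 0.29 at 1% O2 (edgeR FDR 1.31e-06) and rose by 2.09 ± 0.28 with 32-134D (edgeR FDR 2.19e-05), or by 2.43 without replicate 3. COL19A1, a rare collagen of developing muscle and brain, was at 3.16, 2.67 and 3.65 CPM, at 0.371, 0.471 and 0.519 CPM, and at 2.75, 3.10 and 2.01 CPM in the same order. All 3 vehicle libraries at 1% O2 lay below every other library, and the other groups overlapped. COL19A1 fell by 2.85 ± 0.27 (edgeR FDR 3.53e-07) and rose by 2.55 ± 0.26 (edgeR FDR 1.54e-06). With thinned counts the COL19A1 difference at 1% O2 was −2.13. COL19A1 shares 70 exonic bases with LMBRD1, a gene on the opposite strand with 18379 counts. LMBRD1 differed by 0.69 at 1% O2 and by −0.54 with 32-134D. Reads from the shared bases cannot be told apart because no strand setting was stated.

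COL9A2 and COL9A3, chains of type IX collagen that coats the fibers of cartilage, were lower at 1% O2 as well. COL9A3 was at 165, 159 and 156 CPM in vehicle at 20% O2, at 89.7, 101 and 104 CPM in vehicle at 1% O2, and at 125, 129 and 133 CPM with 32-134D. COL9A2 was at 40.0, 37.5 and 42.5 CPM, at 18.4, 19.5 and 16.7 CPM, and at 33.0, 33.2 and 30.8 CPM. For each gene the 3 groups did not overlap, and the 32-134D libraries lay between the vehicle groups. COL9A3 fell by 0.70 ± 0.07 at 1% O2 (edgeR FDR 1.15e-06), and its difference with 32-134D, 0.39 ± 0.07 (edgeR FDR 0.000401), was under the fold threshold. With length and GC trends removed, the difference at 1% O2 was −0.52 and also under the fold threshold. COL9A3 shares 45 exonic bases with TCFL5, a gene on the opposite strand with 8467 counts, and the same limit holds there. TCFL5 differed by 0.88 at 1% O2 and by −0.43 with 32-134D. COL9A2 fell by 1.15 ± 0.09 (edgeR FDR 6.35e-08) and rose by 0.83 ± 0.09 (edgeR FDR 2.64e-06). COL9A2 made up 20.0% ± 1.25 (SD, n = 3) of the summed counts of both genes in vehicle at 20% O2, 15.7% ± 1.67 in vehicle at 1% O2 and 20.1% ± 1.10 with 32-134D. The share was lower in each 1% O2 vehicle library than in any other library. Each difference had an exact two-sided permutation p of 0.1, the smallest that 3 against 3 libraries allow, and 0.1 after adjustment over the 2 tests. Of 7 pairs of chains that share a trimer or a start region, this pair alone had 10 counts of each gene in every library.

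The other FACIT genes were under 1 CPM in every group. COL12A1, a FACIT of tendon and other dense tissue, averaged 0.557 CPM in vehicle at 20% O2, 0.183 CPM in vehicle at 1% O2 and 0.782 CPM with 32-134D. It fell by 1.72 ± 0.57 at 1% O2 (edgeR FDR 0.0196) and rose by 1.95 ± 0.52 with 32-134D (edgeR FDR 0.00643). The first call was lost without vehicle replicate 3 at 20% O2 (−0.85) or vehicle replicate 2 at 1% O2 (−1.49), with counts thinned to the smallest library (−1.98) and with length and GC trends removed (−1.30). The second was lost with thinned counts (2.0). COL16A1 differed by −1.16 ± 0.48 at 1% O2 (edgeR FDR 0.0556), and neither COL9A1 nor COL21A1 was called in any comparison.

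Of the type IV genes, 4 of 6 fell at 1% O2 and 4 of 6 rose with 32-134D. COL4A3 and COL4A4 encode chains that share a trimer of specialised basement membranes such as that of the kidney glomerulus. They start 112 bases apart on opposite strands in GENCODE version 29, COL4A3 at chr2:227164565-227314792 and COL4A4 at chr2:227002711-227164453 (GRCh38). The bases between both genes are shown because the genes moved together, on the COL4A3 strand (RefSeq, GRCh38.p14, chr2:227164454-227164564).
COL4A3 and COL4A4: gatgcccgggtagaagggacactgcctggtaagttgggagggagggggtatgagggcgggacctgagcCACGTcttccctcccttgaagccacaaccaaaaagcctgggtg
The capitals mark 1 CACGT, which begins 102 bases before the RefSeq start of COL4A3. COL4A3 was at 1.22, 2.98 and 1.64 CPM in vehicle at 20% O2, at 0.265, 0.236 and 0.173 CPM in vehicle at 1% O2, and at 1.33, 1.04 and 0.869 CPM with 32-134D. COL4A4 was at 2.51, 3.45 and 2.95 CPM, at 1.03, 0.660 and 0.588 CPM, and at 2.61, 2.52 and 0.915 CPM. Both genes were lowest in vehicle at 1% O2, though COL4A4 in 32-134D replicate 3 lay below the highest of those libraries. COL4A3 fell by 2.95 ± 0.39 at 1% O2 (edgeR FDR 1.36e-05) and rose by 2.25 ± 0.39 with 32-134D (edgeR FDR 0.000208). The COL4A3 differences were −3.75 and 2.94 with counts thinned to the smallest library. COL4A4 fell by 1.89 ± 0.36 (edgeR FDR 0.000385) and rose by 1.40 ± 0.35 (edgeR FDR 0.00382). COL4A3 had 207 counts in all and shares 120 exonic bases with AC097662.1, an antisense gene with 248 counts. With no strand setting stated, reads from those bases cannot be told apart.

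COL4A1, a chain of the common basement membrane trimer, was at 1.08, 1.57 and 1.89 CPM in vehicle at 20% O2, at 0.451, 0.377 and 0.449 CPM in vehicle at 1% O2, and at 1.62, 1.14 and 0.777 CPM with 32-134D. The 1% O2 vehicle libraries lay below all the others. COL4A1 fell by 1.84 ± 0.35 (edgeR FDR 0.000366) and rose by 1.48 ± 0.34 (edgeR FDR 0.002). With length and GC trends removed its differences were smaller, −1.19 and 0.96 (edgeR FDR 0.0096 and 0.0275). COL4A2, its partner, lies on the opposite strand. The outermost starts of these genes in GENCODE are 1421 bases apart, and there the gene models overlap. In RefSeq the starts are closer together. The 250 bases before them, chr13:110307158-110307407 for COL4A1 and chr13:110307034-110307283 for COL4A2, overlap. COL4A2 averaged 0.284, 0.268 and 0.363 CPM in the 3 groups. Its difference at 1% O2 was 0.48 ± 0.78 (edgeR FDR 0.634), or −0.31 to 1.13 when 1 library was left out, and was not called. COL4A5 fell by 1.93 ± 0.63 at 1% O2 (edgeR FDR 0.0178), a call that was lost without vehicle replicate 3 at 20% O2 (−2.01) or vehicle replicate 1 at 1% O2 (−1.34), with counts thinned to the smallest library (−1.20) and with length and GC trends removed (−1.50). Without vehicle replicate 2 at 1% O2 it was −2.70. COL4A6, whose start lies 347 bases from that of COL4A5, had 13 counts in all with 32-134D and 1 count in vehicle at 1% O2, a ratio of 13.2 with a 95% counting interval of 1.98 to 559. It was called higher with 32-134D (edgeR FDR 0.0449), a call lost under 10 of 18 alternatives, among them leaving out replicate 3 of 32-134D.

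**Figure D2:**
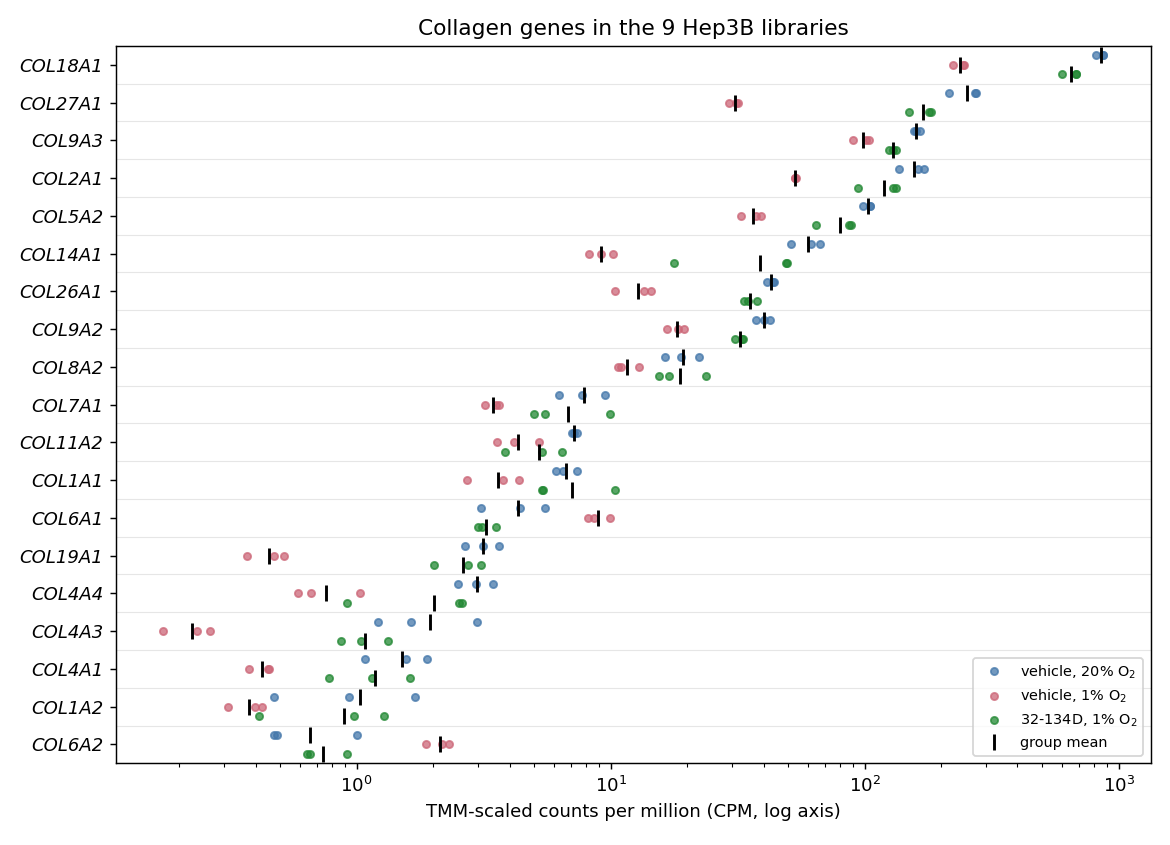
Level of 19 collagen genes in each library (points, log axis, TMM-scaled CPM) with the mean of the 3 replicates of each group (bars). For all but COL6A1 and COL6A2 the group mean of vehicle at 1% O2 is the lowest of the 3, and for those 2 genes it is the highest.

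COL6A1 and COL6A2, chains of the beaded filaments of type VI collagen around cells, changed in the opposite direction. COL6A1 was at 3.08, 5.50 and 4.38 CPM in vehicle at 20% O2, at 8.14, 8.63 and 9.92 CPM in vehicle at 1% O2, and at 3.01, 3.53 and 3.11 CPM with 32-134D. COL6A2 was at 1.00, 0.471 and 0.487 CPM, at 1.88, 2.17 and 2.32 CPM, and at 0.652, 0.640 and 0.915 CPM. In both genes the vehicle libraries at 1% O2 were above every other library, and the other groups overlapped. COL6A1 rose by 1.08 ± 0.18 at 1% O2 (edgeR FDR 0.000124) and fell by 1.47 ± 0.17 with 32-134D (edgeR FDR 6.77e-06). COL6A2 rose by 1.71 ± 0.31 (edgeR FDR 0.000256) and fell by 1.54 ± 0.27 (edgeR FDR 0.000258). The genes are neighbours on chromosome 21, COL6A1 at chr21:45981737-46005050 and COL6A2 at chr21:46098097-46132849 (GRCh38). COL6A3, which encodes the further chain of the usual type VI trimer, had 7 counts over all libraries. The bases before COL6A2, which moved against most other collagen genes, are shown up to its first annotated exon (RefSeq, GRCh38.p14, plus strand, chr21:46097862-46098096).
COL6A2: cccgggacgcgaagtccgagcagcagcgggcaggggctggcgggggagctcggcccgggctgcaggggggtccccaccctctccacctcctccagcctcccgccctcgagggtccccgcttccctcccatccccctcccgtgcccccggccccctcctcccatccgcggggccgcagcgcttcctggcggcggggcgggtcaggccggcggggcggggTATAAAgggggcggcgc
The capitals mark a TATAAA, and the HIF letters do not occur in this stretch.

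COL7A1, the collagen of the fibrils that anchor basement membranes to the tissue below, was at 9.47, 6.28 and 7.73 CPM in vehicle at 20% O2, at 3.53, 3.21 and 3.63 CPM in vehicle at 1% O2, and at 5.53, 4.98 and 9.92 CPM with 32-134D. The 1% O2 vehicle libraries lay below all the others, and replicate 3 was the highest of the 32-134D group. COL7A1 fell by 1.20 ± 0.24 at 1% O2 (edgeR FDR 0.000589) and rose by 0.96 ± 0.23 with 32-134D (edgeR FDR 0.0032), or by 0.60 without replicate 3. Both calls were lost with length and GC trends removed (−0.60 and 0.53).

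COL18A1, which encodes the basement membrane collagen from which endostatin is cut, was the most abundant collagen mRNA (chr21:45405137-45513720, GRCh38). It was at 817, 867 and 872 CPM in vehicle at 20% O2, at 222, 247 and 245 CPM in vehicle at 1% O2, and at 680, 677 and 597 CPM with 32-134D. No groups overlapped, and the 32-134D libraries lay closer to those at 20% O2. COL18A1 was 3.58-fold lower at 1% O2, a log2 fold change of −1.84 ± 0.08 (edgeR FDR 1.18e-10), and rose by 1.45 ± 0.08 with 32-134D (edgeR FDR 3.53e-09). SLC19A1, a folate transporter gene on the opposite strand, shares 1401 exonic bases with COL18A1, 16.4% of the exon length of COL18A1. SLC19A1 fell by 1.06 at 1% O2 and rose by 0.89 with 32-134D, calls that were lost with length and GC trends removed (−0.52 and 0.53). Reads from the shared bases cannot be told apart because the strand setting of the counts was not stated.

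COL26A1, a little-studied secreted collagen, was at 41.4, 43.8 and 43.6 CPM in vehicle at 20% O2, at 10.4, 14.4 and 13.5 CPM in vehicle at 1% O2, and at 34.9, 33.6 and 37.6 CPM with 32-134D. The 3 groups did not overlap. COL26A1 fell by 1.75 ± 0.11 (edgeR FDR 7.37e-09) and rose by 1.47 ± 0.11 (edgeR FDR 9.32e-08). COL8A2, a short-chain collagen of the corneal basement membrane, was at 16.4, 22.3 and 18.9 CPM, at 13, 10.7 and 11.0 CPM, and at 16.9, 15.6 and 23.7 CPM. Its 1% O2 vehicle libraries were the lowest, and the other groups overlapped. COL8A2 fell by 0.71 ± 0.16 (edgeR FDR 0.00163) and rose by 0.69 ± 0.16 (edgeR FDR 0.00197), but without 32-134D replicate 3 the latter difference was 0.48 and under the fold threshold. COL28A1, with 35 counts in all, fell by 2.01 ± 0.77 at 1% O2 (edgeR FDR 0.0395), and this call was lost with DESeq2 (−2.10), with the replicate number as a block (−2.04, edgeR FDR 0.0718) and without vehicle replicate 3 at 20% O2 (−1.49) or vehicle replicate 2 (−1.62) or 3 (−2.05) at 1% O2. Without vehicle replicate 1 at 1% O2 it was −2.69.

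The third comparison asked how far collagen mRNAs with 32-134D at 1% O2 lay from those in vehicle at 20% O2. In edgeR, 0 genes were called higher and 0 lower, where 3.0% and 0.516% of all genes were. Without the fold threshold, 5 genes had an FDR below 0.05, all lower with 32-134D, against 2.44% of all genes. At an unadjusted p below 0.05 there were 10 genes, against 24.6% of all genes, and DESeq2 called 0 genes and gave 6 an FDR below 0.05, against 13.3% of all genes. The 5 genes were COL18A1 (−0.39, edgeR FDR 0.00399), COL27A1 (−0.57, edgeR FDR 0.00193), COL9A3 (−0.31, edgeR FDR 0.0139), COL2A1 (−0.40, edgeR FDR 0.0398) and COL9A2 (−0.32, edgeR FDR 0.0359). They are among the most abundant collagen mRNAs. The differences of 22 of the 29 genes were below 0, and the median was −0.37, against −0.003 for all genes tested. COL6A1 and COL6A2 differed by −0.38 and 0.17 (edgeR FDR 0.242 and 0.822). This comparison shares its samples with the others.

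Summed over all collagen genes, the level was 1620, 1787 and 1774 CPM in vehicle at 20% O2, 504, 550 and 551 CPM in vehicle at 1% O2, and 1371, 1369 and 1184 CPM with 32-134D. The groups did not overlap, and the 32-134D libraries lay between the vehicle groups. The means were 1727 ± 93.1, 535 ± 27.1 and 1308 ± 107 CPM (SD, n = 3). COL18A1 made up 49.4% ± 0.985 of the sum at 20% O2, 44.5% ± 0.344 at 1% O2 and 49.8% ± 0.513 with 32-134D. COL27A1 made up 14.6% ± 1.17, 5.76% ± 0.0761 and 13% ± 0.374. The share of COL9A3 was highest at 1% O2, with 9.29% ± 0.762, 18.4% ± 0.554 and 9.92% ± 1.14. The share of COL2A1 was 9.06% ± 0.563, 10.0% ± 0.562 and 9.03% ± 0.914. The shares are of 1 sum, so a lower share of one gene raises the others.

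**Figure D3:**
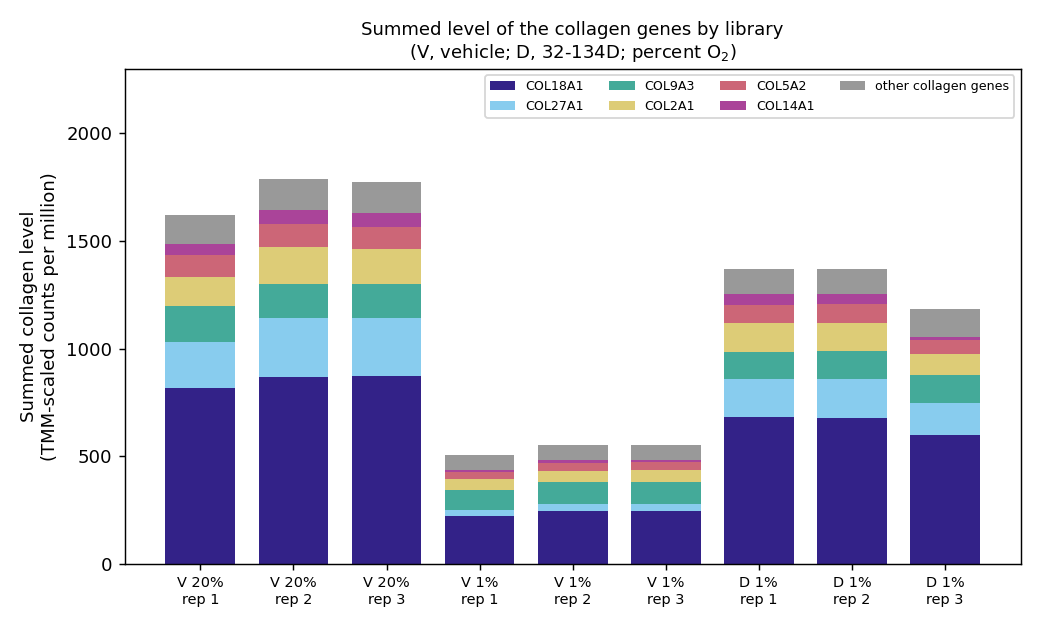
Summed level of the collagen genes in each of the 9 libraries (TMM-scaled CPM), with the 6 most abundant genes in color and the other collagen genes in gray. The 3 vehicle libraries at 1% O2 lie between 504 and 551 CPM, below the 6 other libraries, and COL18A1 is the largest part of every bar.

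Levels can be compared between genes only per length. Per kilobase of exon, the mean level in vehicle at 20% O2 was 33.0 CPM for COL9A3, 23.5 CPM for COL2A1, 18.1 CPM for COL27A1, 13.8 CPM for COL5A2 and 13.6 CPM for COL26A1. In vehicle at 1% O2 the same genes were at 20.3, 8.02, 2.20, 4.89 and 4.05 CPM per kilobase. COL27A1 thus passed from above COL5A2 and COL26A1 to below both, and with 32-134D it was above them again at 12.2 CPM per kilobase, against 10.7 and 11.2. The main chains of liver scar were low throughout, with COL1A1 at 0.677 and COL1A2 at 0.0928 CPM per kilobase at 20% O2.

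The 15 collagen genes left out had under 10 counts over all libraries. They were COL3A1, COL5A1, COL5A3, COL6A3, COL6A5, COL6A6, COL8A1, COL10A1, COL13A1, COL15A1, COL17A1, COL20A1, COL22A1, COL23A1 and COL25A1, and 2 of them, COL6A5 and COL23A1, had no count. Just inside the threshold were COL24A1 with 10 counts, COL9A1 with 12 and COL11A1 with 14, and just outside were COL17A1 with 8 and COL6A3 and COL10A1 with 7 each. All 4 transmembrane collagen genes were left out. COL3A1, the partner of type I collagen in scar, was among those not detectable at this depth.

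Genes that modify, export, process and bind collagen were set beside the chains. Of 41 listed genes, 38 were tested. At 1% O2, 11 of them rose and 8 fell, with a median log2 fold change of 0.12. With 32-134D, 8 rose and 8 fell, with a median of −0.13. Over all genes tested, 19.5% rose and 20.3% fell at 1% O2, and 16.2% rose and 13.7% fell with 32-134D. These shares stand beside the counts of each list below as well. Relative to vehicle at 20% O2, P4HA1 (1.40 ± 0.11, edgeR FDR 2.36e-06), P4HA2 (0.78 ± 0.08, edgeR FDR 2.09e-05) and LOXL2 (1.44 ± 0.26, edgeR FDR 0.00265) were higher with 32-134D. Without 32-134D replicate 3 the LOXL2 difference was 0.95.

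Of the 15 genes of helix modification, 6 rose and 3 fell at 1% O2, and 2 rose and 5 fell with 32-134D. P4HA1 and P4HA2, catalytic chains of prolyl 4-hydroxylase, rose by 4.25 ± 0.12 and 2.72 ± 0.08 at 1% O2 (edgeR FDR 3.42e-12 and 4.54e-12) and fell by 2.85 ± 0.11 and 1.94 ± 0.08 with 32-134D (edgeR FDR 2.62e-10 and 2.81e-10). The mean level of P4HA1 was 18.1, 347 and 48.0 CPM in the 3 groups, the reverse of the order seen for COL18A1. PLOD2, a lysyl hydroxylase, rose by 2.15 ± 0.09 (edgeR FDR 1.27e-10) and fell by 1.71 ± 0.09 (edgeR FDR 3.17e-09). COLGALT2, a galactosyltransferase of collagen, fell by 1.18 ± 0.29 at 1% O2 (edgeR FDR 0.00315) and rose by 1.39 ± 0.27 with 32-134D (edgeR FDR 0.000674). The first of these calls was lost without vehicle replicate 3 at 20% O2 (−0.85).

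Cross-linking and export genes that were called rose at 1% O2. LOX and LOXL2, lysyl oxidases that cross-link collagen outside the cell, rose by 2.05 ± 0.27 and 2.21 ± 0.26 (edgeR FDR 1.1e-05 and 4.16e-06) and fell by 2.24 ± 0.26 and 0.76 ± 0.23 with 32-134D (edgeR FDR 5.23e-06 and 0.0136). They were the only called genes of 5 in the list. The LOXL2 call with 32-134D was lost with DESeq2 (−0.69), total library size (−0.57) or without 32-134D replicate 1 (−0.47) or 2 (−0.56) or vehicle replicate 3 at 1% O2 (−0.61), and without 32-134D replicate 3 the difference was −1.25. SERPINH1, the collagen chaperone HSP47, and PREB, which serves export from the endoplasmic reticulum, rose by 0.62 ± 0.08 and 0.60 ± 0.07 at 1% O2 (edgeR FDR 9.41e-06 and 4.74e-06). Both lay just above the fold threshold and were under it with DESeq2 (0.57 and 0.55) and with total library size (0.40 and 0.39). With 32-134D their differences were −0.45 ± 0.08 and −0.56 ± 0.07 (edgeR FDR 0.000243 and 1.38e-05), which were under the fold threshold.

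Propeptide processing and receptor genes were mixed or lower at 1% O2. ADAMTS3, which cuts the N-terminal propeptide of type II procollagen in culture, averaged only 1.57, 0.229 and 1.40 CPM in the 3 groups. It fell by 2.81 ± 0.34 and rose by 2.67 ± 0.33 (edgeR FDR 5.98e-06 and 9.81e-06). TLL1, a C-propeptide protease at 1.08, 0.454 and 1.25 CPM, fell by 1.27 ± 0.29 and rose by 1.46 ± 0.26 (edgeR FDR 0.0017 and 0.000342), the latter lost with thinned counts (1.18). PCOLCE, an enhancer of that cleavage, rose by 0.72 ± 0.16 and fell by 0.98 ± 0.15 (edgeR FDR 0.00119 and 7.44e-05), the former lost with total library size (0.51) and without vehicle replicate 1 at 20% O2 (0.56). The other 3 genes of the 6 tested were not called. Of 6 collagen receptor genes tested, 3 fell at 1% O2 and 4 rose with 32-134D. ITGA1 and ITGB1, the integrin chains that form a collagen receptor together, fell by 1.10 ± 0.09 and 0.74 ± 0.11 (edgeR FDR 7.8e-08 and 3.44e-05) and rose by 1.06 ± 0.09 and 0.90 ± 0.11 with 32-134D (edgeR FDR 2.28e-07 and 8.37e-06). With length and GC trends removed, the ITGA1 differences were −0.53 and 0.48 and under the fold threshold. DDR2, a receptor kinase for fibrillar collagen, averaged only 1.07, 0.209 and 0.818 CPM. It fell by 2.18 ± 0.47 and rose by 1.88 ± 0.44 (edgeR FDR 0.0011 and 0.00278), the latter lost with thinned counts (1.62). ITGA2, another collagen-binding integrin chain, was at 34.7, 35.3 and 223 CPM with 32-134D and at 22.1, 21.7 and 20.0 CPM in vehicle at 1% O2, so that replicate 3 of 32-134D stood far above the rest. It differed by −0.71 ± 0.54 at 1% O2 (edgeR FDR 0.285) and rose by 2.19 ± 0.53 with 32-134D (edgeR FDR 0.00309). Without 32-134D replicate 3 the ITGA2 rise was 0.72 (edgeR FDR 2.43e-08).

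**Figure D4:**
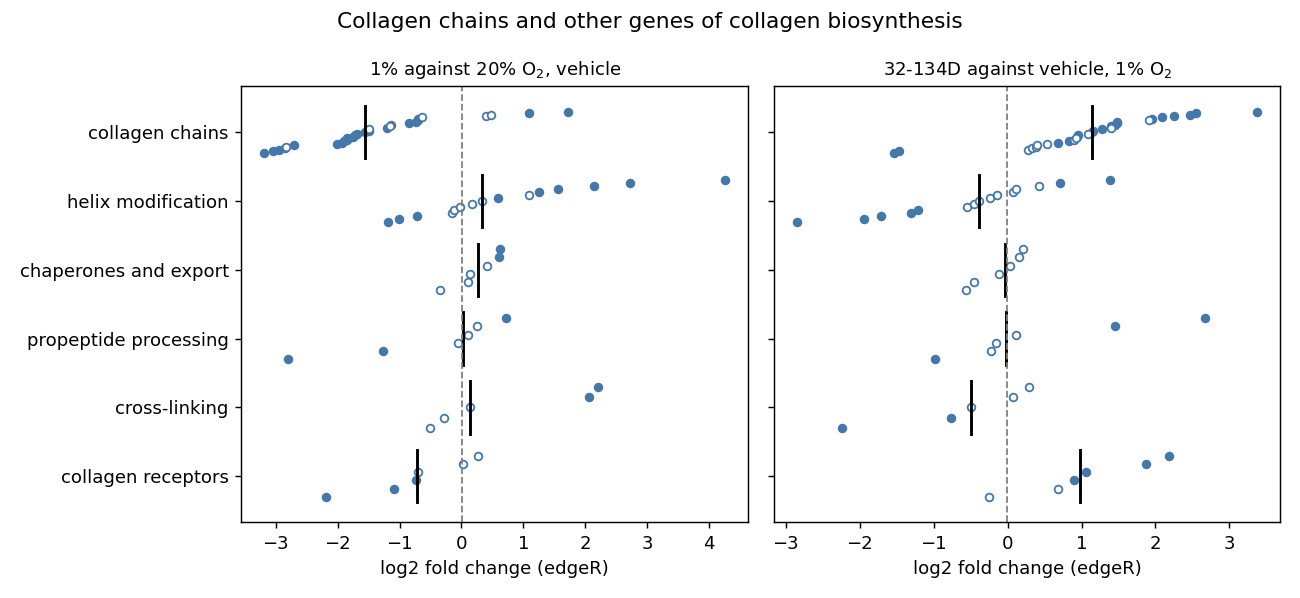
Log2 fold changes of the collagen chains and of the 5 lists of other collagen genes, for 1% against 20% O2 in vehicle (left) and 32-134D against vehicle at 1% O2 (right). Filled points passed the FDR and fold change thresholds, black bars are list medians and the dashed line is the median of all genes. The collagen chains lie mostly left of the dashed line at 1% O2 (median −1.55) and right of it with 32-134D (median 1.14).

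Markers of cell types of the liver were checked in the same libraries. Of 12 hepatocyte markers all were tested, and their summed level was 21735 to 22705 CPM in vehicle at 20% O2, 16365 to 20163 CPM in vehicle at 1% O2 and 13730 to 20778 CPM with 32-134D. Among them APOB, an apolipoprotein of hepatocytes, fell by 3.47 ± 0.18 at 1% O2 and rose by 3.12 ± 0.17 with 32-134D (edgeR FDR 7.6e-10 and 5.98e-09). It averaged 4487, 406 and 3520 CPM in the 3 groups. Of the 12 markers, 0 rose and 2 fell at 1% O2, and 1 rose and 4 fell with 32-134D. The 4 were TTR (−0.92), FGA (−0.97), FGB (−0.98) and TF (−0.80), with edgeR FDRs of 0.0152 to 0.0457. Without 32-134D replicate 3 each was under the fold threshold. All 4 calls were also lost with total library size (edgeR FDR 0.0507 to 0.0978). They were lost in a fit of only the 2 groups as well (edgeR FDR 0.0716 to 0.139). With DESeq2 the calls of TTR, FGA and FGB were lost. Of 11 fibroblast and stellate cell markers 5 were tested, with a summed level of 48.3 to 53.1 CPM in vehicle at 20% O2, 21.6 to 23.9 CPM in vehicle at 1% O2 and 45.6 to 47.8 CPM with 32-134D. The sum was lowest in vehicle at 1% O2, as the collagen sum was, and 2 of the 5 markers fell at 1% O2 and 3 rose with 32-134D. The receptor genes PDGFRA and PDGFRB fell by 1.58 ± 0.13 and 1.44 ± 0.11 at 1% O2 (edgeR FDR 9.74e-08 and 3.3e-08), and with means of 19.2 and 27.2 CPM in vehicle at 20% O2 they made up most of the sum. LUM, a proteoglycan of collagen fibers, averaged 2.43, 3.76 and 8.39 CPM in the 3 groups. It differed by 0.61 ± 0.31 at 1% O2 (edgeR FDR 0.112) and rose by 1.14 ± 0.26 with 32-134D (edgeR FDR 0.00216), or by 0.70 without replicate 3. LRAT, an enzyme of retinol storage in stellate cells, averaged 1.51, 2.15 and 1.58 CPM and was not called (0.58 ± 0.25 at 1% O2, edgeR FDR 0.0647). The defining markers ACTA2, DES and POSTN had no count in any library, DCN had 4 counts, FAP 5 and THY1 9 over all 9 libraries. Of the 7 endothelial and the 7 leukocyte markers, 1 and 2 were tested, with summed levels of at most 1.28 and 4.88 CPM in any library. PECAM1, of endothelial cells, fell by 1.88 ± 0.52 at 1% O2 and rose by 1.93 ± 0.48 with 32-134D (edgeR FDR 0.0065 and 0.00362). CD14, of monocytes and macrophages, fell by 1.29 ± 0.32 and rose by 0.92 ± 0.31 (edgeR FDR 0.00329 and 0.0247), and the latter call was lost without 32-134D replicate 1 (0.70) or vehicle replicate 1 (0.98) or 2 (0.75) at 1% O2. CSF1R, the other leukocyte marker tested, went the other way. It differed by 0.40 ± 0.25 at 1% O2 (edgeR FDR 0.184) and fell by 0.70 ± 0.23 with 32-134D (edgeR FDR 0.0202). The latter call was lost with DESeq2 (−0.65), thinned counts (−0.86), total library size (−0.52) and every gene of at least 1 count (−0.71). It was also lost without 32-134D replicate 1 (−0.74) or 2 (−0.52) or vehicle replicate 2 (−0.60) or 3 (−0.67) at 1% O2. All 5 cholangiocyte markers were tested. Their summed level was 921 to 1080 CPM in vehicle at 20% O2, 1152 to 1299 CPM in vehicle at 1% O2 and 849 to 994 CPM with 32-134D. This sum was highest in vehicle at 1% O2. KRT19 fell by 0.73 ± 0.16 with 32-134D (edgeR FDR 0.00179), or by 0.51 without replicate 3. CFTR, under 1 CPM in every group, fell by 2.71 ± 0.62 and rose by 2.96 ± 0.57 (edgeR FDR 0.00184 and 0.000561). The part of these marker differences in the collagen results was not tested.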

How the data were processed

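RNA-seq of 9 Hep3B cultures was analysed. The authors deposited raw counts per Ensembl gene, without normalization. Per the paper's methods and the submitters' processing notes, reads were checked with FastQC, mapped with STAR to GRCh38 and counted with featureCounts, and the strand setting and versions were not given in the sources used here. The culture medium differs between the labels and the paper.

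Counts were fitted with edgeR 4.0.16 (R 4.3.3) by the quasi-likelihood test with TMM scaling in 1 fit of the 9 libraries, and FDRs (Benjamini-Hochberg) were taken over all 22672 genes with counts summing to 10 or more. CPM, means and SDs (n = 3) are TMM-scaled. Positions, exon lengths and overlaps came from GENCODE version 29, in which all 29 collagen genes were found. Promoter sequences came from RefSeq. The precision rests on 3 replicates and, for rare transcripts, on the smallest library, and counting intervals cover counting error only. The fit was tested on simulated data, in which the share of false calls was above the FDR threshold of 0.05 for both comparisons.

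The collagen genes, lists and tests were chosen with earlier results of these data known. Values in every library were given for the 19 genes called in at least 1 comparison with a mean of at least 1 CPM in a group, and every other tested collagen gene was named. In each other list, up to 4 called genes with the largest log2 fold change with 32-134D were named, and CA9 served as a label check. SLC19A1, LMBRD1 and TCFL5 were named after their values were seen. So were APOB, TTR, FGA, FGB, TF, PDGFRA, PDGFRB, LUM, LRAT, PECAM1, CD14, CSF1R, KRT19, CFTR and the untested markers.

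Alternatives were DESeq2 1.42.0, RLE and total library size scaling, other filters and fold thresholds, fits of 2 groups, thinning, removal of length and GC trends, a block for the replicate number and fits without each library in turn.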

Additional observations from a re-analysis of the deposited data

How the results depend on the processing

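No call reversed. Of the collagen differences that were not called, 14 changed sign under at least 1 alternative, among them COL4A2 at 1% O2 (0.48, −0.31 at the lowest) and COL6A2 against vehicle at 20% O2 (0.17, −0.17 at the lowest). Of the counts, medians, sums and chain shares of the collagen and biosynthesis genes, 272 values under an alternative stayed within 1.5 times the reported count, within 1 SD of the reported median or sum, or on the same side of 0 for the shares, and 39 moved further. Of the values of single genes, 1595 kept their side of the thresholds, 54 lost a call and 17 gained one. The cause was not tested. Of the calls, 14 of 23 at 1% O2 and 13 of 19 with 32-134D were kept in every alternative in which the gene was tested, other than the fold thresholds.

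The number of collagen genes tested was 42 with every gene of at least 1 count and 15 where each library needed 10 counts. It was 24 with thinned counts and 29 otherwise, so these medians cover different genes. The median at 1% O2 was −1.64 with DESeq2, −1.76 with total library size and −1.30 with length and GC trends removed. It was −1.12 with every gene of at least 1 count and −1.61 where each library needed 10 counts. When 1 library was left out it ran from −1.72 to −1.22. The median with 32-134D was 1.21 with DESeq2, 1.19 with RLE size factors, 1.33 with total library size, 0.918 with every gene of at least 1 count, 1.23 with at least 10 counts in every library, 1.20 in a fit of only the 2 groups, 1.30 with thinned counts and 1.02 with length and GC trends removed, and it ran from 1.11 to 1.34 when 1 library was left out. With at least 10 counts in every library, 15 collagen genes were tested and COL6A2 was not among them. At 1% O2, 1 was called higher and 14 lower, against 2824 and 3347 of 12912 genes. With 32-134D, 12 were called higher and 1 lower, against 2677 and 1771 of all genes. Relative to vehicle at 20% O2, 1 was called lower, against 130 of all genes. Under this filter, 5 other biosynthesis genes rose with 32-134D. With total library size or every gene of at least 1 count, 1 collagen gene was called lower than in vehicle at 20% O2, and without a fold threshold 5 were. When 1 library was left out, 0 to 1 was. Of the other biosynthesis genes, 7 rose at 1% O2 with total library size and also above a fold change of 2, and 7 to 12 rose when 1 library was left out, the fewest without vehicle replicate 1 at 20% O2. Without a fold threshold, 14 of them fell with 32-134D and 2 were lower than in vehicle at 20% O2. Scaled by total library size, the collagen sum was 1826 CPM in vehicle at 20% O2 and 487 in vehicle at 1% O2.

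The correlations of deviations between same-numbered libraries ran from −0.0322 to 0.00525 over 9 pairs. A library correlated best with its own number in 2 of 18 cases. These values gave no sign that replicate numbers pair the libraries. With 3 libraries per group they cannot show that pairing was absent. With a replicate block, 2 collagen genes rose and 19 fell at 1% O2 (median −1.50), and 16 rose and 2 fell with 32-134D (median 1.13).

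Collagen genes under 1 CPM rested on few counts, and the smallest library held 6013980 counts.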

Other observations

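SOX5, SOX6 and SOX9, which encode transcription factors of cartilage known to act on COL2A1 and COL9A2, were looked up after the collagen values had been seen. SOX6 was at 36.4, 42.2 and 46.1 CPM in vehicle at 20% O2, at 6.23, 6.55 and 6.43 CPM in vehicle at 1% O2, and at 35.1, 36.4 and 22.7 CPM with 32-134D. SOX5 was at 4.73, 3.30 and 7.42 CPM, at 0.795, 1.08 and 1.00 CPM, and at 5.30, 5.59 and 2.79 CPM. The 1% O2 vehicle libraries of both genes lay below all others. SOX6 fell by 2.70 ± 0.16 at 1% O2 and rose by 2.30 ± 0.16 with 32-134D (edgeR FDR 3.86e-09 and 4.55e-08). With length and GC trends removed, the SOX6 differences were −2.06 and 1.69. SOX5 fell by 2.54 ± 0.32 and rose by 2.28 ± 0.31 (edgeR FDR 8.06e-06 and 2.77e-05). SOX9 averaged 131, 100 and 121 CPM, and its differences of −0.39 ± 0.13 and 0.27 ± 0.13 (edgeR FDR 0.0195 and 0.0981) were under the fold threshold. No relation between these genes and the collagen genes was tested.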
